A study of Mus musculus with 67 samples.

Results

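The control transition from the 4-cell to the 8-cell stage was described by comparing 4 control 8-cell libraries with 6 control 4-cell libraries of mouse embryos. These 10 libraries are all those labelled with these stages in the control group, out of 67 libraries in the series. The embryos were of strain C57BL/6 and carried no transgene or deletion named in the labels, and control embryos were cultured in the dark. Single cells picked from dissociated embryos were amplified by SMART-seq2, a method that copies whole polyadenylated RNA and marks neither strand nor molecule. Other groups are used here only for reference. They are 7 control 2-cell, 13 control morula and 3 control blastocyst libraries, and 8 libraries of each stage from embryos illuminated at high intensity at the 2-cell stage and then kept in the dark (light 4-cell and light 8-cell). Each library carries an embryo number in its label. Whether libraries of a stage came from different embryos was not tested, so the p-values measure the spread between these libraries only.

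The mouse embryo begins life on RNA stored by the oocyte. Most of that RNA is cleared and a first wave of embryonic genes is switched on transiently at the 2-cell stage. After that wave, transcripts for ribosomes, mitochondria and other housekeeping machinery accumulate, and at the 8-cell stage the cells flatten against each other, polarise and prepare for the first choice between trophectoderm and inner cell mass. Imprinted genes are expressed from the copy of one parent only, and in female embryos the paternal X chromosome starts to be silenced by the RNA Xist in this period.

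Each value is a signal deposited by the authors, the reads on a gene after division by a library size factor, with no division by transcript length. Levels are therefore compared between libraries and never between genes. Total reads were 2892981 to 6536063 in the 4-cell libraries and 1967508 to 5907128 in the 8-cell libraries. On average 61.8% ± 2.94 (SD, n = 6) of the reads at the 4-cell stage and 75.3% ± 1.28 (SD, n = 4) in 8-cell libraries fell on CT010467.1 and Gm42418, a pair of genes that hold ribosomal RNA sequence (two-sided exact permutation p = 0.00476, the smallest that 210 regroupings can give). The median log2 difference over all genes tested was -0.56 on the deposited scale, whereas it was 0.05 after rescaling each library by the median ratio of its genes (the median-ratio scale). Both scales are given wherever they differ in a call. The number of genes with a read was 10647 to 13370 at the 4-cell stage and 11367 to 12714 in 8-cell libraries (exact permutation p = 0.652).

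Library likeness went against the order of the labels in one respect. For each library the correlation of log2 values with the mean control morula was subtracted from that with the mean control 2-cell embryo, over 22588 genes, so that a higher value means relatively nearer to the 2-cell stage. The 4-cell libraries lay at -0.188 ± 0.0259 (SD, n = 6; -0.220 to -0.154) and the 8-cell libraries at -0.0882 ± 0.0267 (SD, n = 4; -0.117 to -0.0587). All 8-cell libraries thus lay above all 4-cell libraries on this measure, with a difference of the means of 0.0998 (two-sided exact permutation p = 0.00476). The correlation with the 2-cell mean alone overlapped, at 0.642 to 0.700 in 4-cell and 0.689 to 0.731 in 8-cell libraries, whereas that with the morula mean was 0.819 to 0.863 and 0.789 to 0.806. In the light group the order was that of the labels, with -0.128 ± 0.0207 (SD, n = 8) at the 4-cell stage and -0.195 ± 0.0214 (SD, n = 8) in 8-cell libraries (exact permutation p = 0.000155). The change between stages differed between control and light embryos by 0.168 (exact permutation p = 1.35e-06 over 1486485 regroupings within stages). Control and light labels were regrouped within each stage. That p-value therefore refers to no difference between control and light at either stage, and is no test of the change alone. Every direction below is that of the libraries labelled 4-cell and 8-cell.

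**Figure D1:**
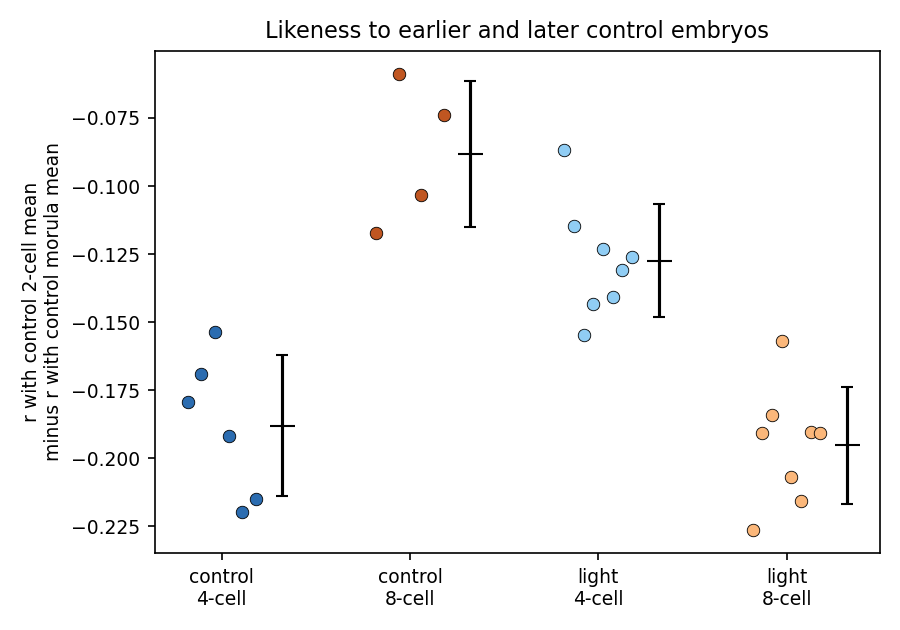
Correlation with the mean control 2-cell library minus correlation with the mean control morula library, for each control and light 4-cell and 8-cell library, with group means and SD. The 4 control 8-cell points lie above all 6 control 4-cell points, while the 8 light 8-cell points lie below all 8 light 4-cell points.

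The stages differed across the transcriptome. The stage label accounted for 22.2% of the squared distance among the 10 libraries (exact permutation p = 0.00952). The 8-cell libraries formed 1 group on the first principal component (27.4% of the variance), at 69.3 to 91.4. The 4-cell libraries did not. Libraries 4, 5 and 6 lay between -137 and -102, library 3 at -27.4, and libraries 1 and 2 at 28.3 and 36.1, set apart from all others on the second component (16.1%) at -138 and -116. In libraries 1 and 2 there were 4.55 and 4.35 reads of Gm42418 for each read of CT010467.1, against 1.61 to 1.98 in the other 4-cell libraries and 2.01 to 2.34 in the 8-cell libraries. Pairwise correlations were 0.687 to 0.832 among 4-cell libraries, 0.721 to 0.753 among 8-cell libraries and 0.654 to 0.716 between the stages.

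**Figure D2:**
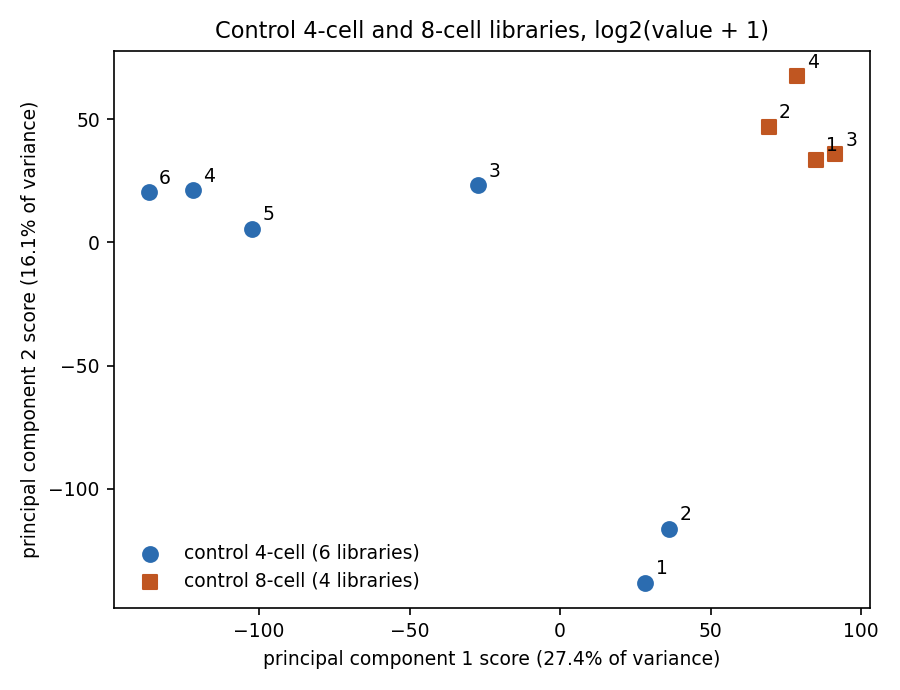
First (27.4% of the variance) and second (16.1%) principal components of log2(value + 1) in the 10 control libraries, each point a library. The 8-cell libraries lie together at the right, 4-cell libraries 4 to 6 at the left, and 4-cell libraries 1 and 2 at the bottom.

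In the limma test on log2(value + 1), 847 of 13425 genes differed (6.31%; adjusted p under 0.05 and at least a 2-fold change). Of them 153 were higher (1.14%) and 694 lower (5.17%) in the 8-cell libraries. On the median-ratio scale 272 of 13467 genes differed (2.02%) and the split turned, with 200 higher (1.49%) and 72 lower (0.535%). In the same direction on both scales 214 of 13284 genes were called (1.61%), 142 higher (1.07%) and 72 lower (0.542%), and these are the genes that the text calls risen or fallen unless a scale is named. Between the stages 110 of the 142 and 67 of the 72 did not overlap, whereas over all genes tested the 8-cell values lay above every 4-cell value in 1.41% and below in 5.38% on the deposited scale, and in 3.15% and 1.55% on the median-ratio scale. The log2 change had a median size of 3.58 (1.51 to 6.64) among the 142 and of 4.08 (2.00 to 6.74) among the 72. Predicted genes without an assigned name made up 50 of the 142 and 3 of the 72. Which 4-cell libraries were used moved the numbers: without libraries 1 and 2, which stood apart, 186 genes rose and 312 fell on both scales, and with libraries 1 and 2 as the only 4-cell libraries 75 rose and 11 fell.

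The largest rises started from 4-cell levels at or near 0. Apol7b, an apolipoprotein L family member, had values of 0, 0.655, 0.380, 0, 0 and 0 in 4-cell libraries 1 to 6 and of 193, 175, 41.8 and 117 in 8-cell libraries 1 to 4. Its log2 change was 6.64 (SE 0.97, limma adjusted p = 0.00052) and 7.02 on the median-ratio scale. The 8-cell values were made by 853 reads and the 4-cell values by 2, a ratio of rates of 619.9 with a 95% counting interval of 171 to 5127. Since reads were not marked by molecule, that interval covers counting error only.

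Chit1, which encodes the chitin-degrading enzyme chitotriosidase, had values of 0, 0, 0.380, 0, 0.683 and 14.8 at the 4-cell stage. In the 8-cell libraries they were 125, 303, 181 and 149, all above the single high 4-cell library 6. The log2 change was 6.62 (SE 0.98, limma adjusted p = 0.00054). Scd3, one of the stearoyl-CoA desaturases that make monounsaturated fatty acids, went from 62.2, 2.62, 5.32, 3.91, 0 and 9.03 to 313, 739.5, 661 and 285. Library 1 was the high one among the 4-cell libraries, and the stages did not overlap. The change was 6.15 (SE 0.83, limma adjusted p = 0.000251). Colgalt2, a galactosyltransferase that modifies collagen, was detected with 1 read in 4-cell library 1 and none in the others, and had values of 155, 234, 23.2 and 25.9 in 8-cell libraries. That is a ratio of 1003 (95% counting interval 179 to 39666), with a limma adjusted p of 0.00211. The first pair of 8-cell libraries was several times higher than the second.

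Stox1, Ankrd22 and Esp24 had no read in any 4-cell library. Stox1, a winged-helix DNA-binding protein, had values of 30.5, 12.2, 90.5 and 38.8 in 8-cell libraries, at least 110.0-fold higher than the limit of 3 reads over the 4-cell stage. Ankrd22, an ankyrin-repeat protein, had values of 4.63, 65.0, 58.0 and 68.4 and was at least 165-fold higher, with library 1 far below the other 3. Esp24, of the exocrine gland-secreted peptides known as pheromones, had values of 38.9, 53.8, 5.80 and 51.7 and was at least 132-fold higher, with library 3 low. Their limma adjusted p-values were 0.00277, 0.00381 and 0.00389. The fitted log2 changes of 5.13, 5.13 and 4.89 depend on the pseudocount and are no bounds.

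Sap30, a subunit of the SIN3 histone deacetylase complex, had 4-cell values of 0, 17.0, 16.7, 5.87, 4.10 and 1.64 and 8-cell values of 128, 213, 113 and 149. No 4-cell library came near the 8-cell range, and the log2 change was 4.73 (SE 0.85, limma adjusted p = 0.00266). Robo1, the receptor for Slit guidance proteins, had 4-cell values of 4.26, 0, 0, 1.96, 0 and 0 and 8-cell values of 8.33, 118, 49.9 and 78.4 (4.86, SE 1.06, limma adjusted p = 0.00863). Its 8-cell library 1 was close to 4-cell library 1, although the stages did not overlap. Nat8f2, an N-acetyltransferase family member, rose by 4.87 on the log2 scale, from at most 4.92 to at least 34.8. Ccser1, a coiled-coil serine-rich protein, rose by 4.81, from at most 17.2 to at least 67.6. Vmn2r94, a vomeronasal pheromone receptor, rose by 4.74, with values of 36.1, 58.0, 29.0 and 37.5 in 8-cell libraries and, among the 4-cell libraries, reads only in library 1 (10.2).

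**Figure D3:**
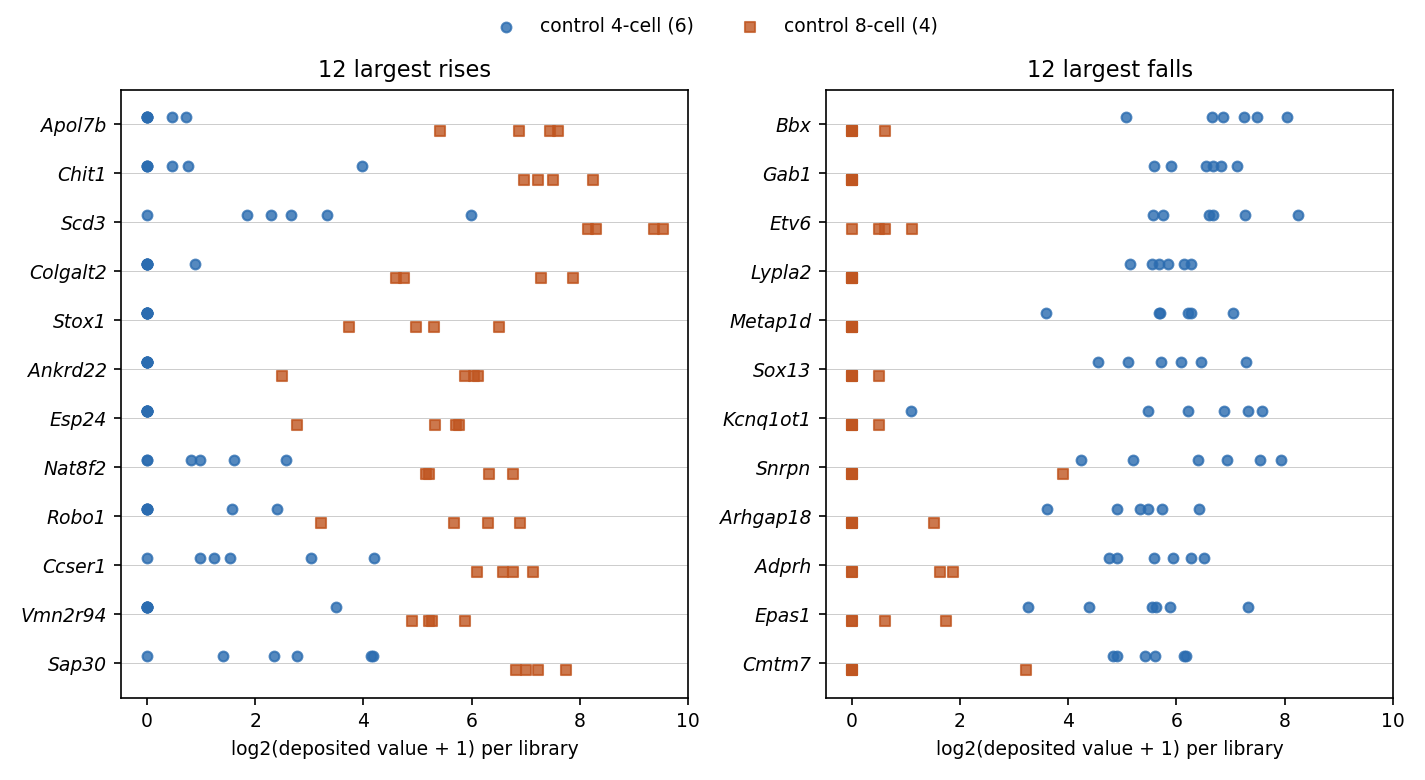
Deposited values, plotted on the log2(value + 1) scale, of the 12 largest rises and the 12 largest falls in each control 4-cell and 8-cell library. For every gene plotted the 4-cell and 8-cell points do not overlap.

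The largest falls ran from clearly detected 4-cell values to 0 or a few reads. Bbx, an HMG-box DNA-binding protein, had 4-cell values of 151, 262, 32.7, 178, 100.4 and 116. Its 8-cell values were 0, 0.532, 0 and 0, of which the one above 0 was a single read. The log2 change was -6.74 (SE 0.80, limma adjusted p = 9.49e-05) and -6.29 on the median-ratio scale. Etv6, an ETS-family repressor of transcription, had 4-cell values of 305, 46.5, 52.8, 153, 95.6 and 101 and 8-cell values of 0, 0.532, 1.16 and 0.417 (-6.13, SE 0.80, limma adjusted p = 0.00017). Sox13, a SOX-family transcription factor, had 4-cell values of 33.2, 156, 66.9, 22.5, 86.7 and 51.7 and 8-cell values of 0, 0, 0 and 0.417 (-5.74, SE 0.90, limma adjusted p = 0.000879). All 3 of these DNA-binding proteins were detected in every 4-cell library. Epas1, the hypoxia-inducible factor HIF-2 alpha, had 4-cell values of 48.6, 8.52, 46, 57.7, 19.8 and 158 and 8-cell values of 0, 0.532, 2.32 and 0 (-4.75, SE 0.98, limma adjusted p = 0.00615). In control morulae its mean was 369.6, above every control 4-cell library.

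Lypla2, an acyl-protein thioesterase that removes palmitate from proteins, had 4-cell values of 56.2, 45.9, 69.2, 34.2, 75.8 and 50.1 and no read in 8-cell libraries, at least 120.4-fold lower (limma adjusted p = 0.000703). Metap1d, a mitochondrial methionine aminopeptidase, had 4-cell values of 76.7, 50.5, 11.0, 131, 73.1 and 50.9 and no read in 8-cell libraries, at least 114-fold lower (limma adjusted p = 0.00131). The 4-cell values of Lypla2 varied little around 55.2 ± 15.3 (SD, n = 6), so that the whole 8-cell group fell outside a narrow range. Arhgap18 fell by 4.86 on the log2 scale, from at least 11.1 to at most 1.85. Adprh, which removes ADP-ribose from arginine, fell by 4.79, from at least 26.0 to at most 2.66, and Cmtm7, a MARVEL-domain membrane protein, fell by 4.71, from at least 27.5 to at most 8.34. Ssr1, a subunit of the translocon-associated complex at the endoplasmic reticulum, was named for its difference from the light group. Its values of 151, 126, 67.3, 235, 139 and 201 at the 4-cell stage became 13.0, 0.532, 6.97 and 5.01 (-4.67, SE 0.67, limma adjusted p = 0.000491). Ccng1, a cyclin G induced by p53, had 4-cell values of 43.5, 1.97, 16.7, 206, 329 and 207 and 8-cell values of 0, 0, 1.16 and 2.09 (-5.14, SE 1.12, limma adjusted p = 0.00879). Here 4-cell library 2 reached down into the 8-cell range, and libraries 4 to 6 were the highest.

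Several named genes share sequence with overlapping genes in the annotation, and reads without strand cannot be told apart there. Among them, Apol7b overlaps 4930571N24Rik and Gm6506, Kcnq1ot1 overlaps Kcnq1, and Snrpn overlaps Snurf. Etv6 overlaps several predicted genes. Of these, Gm43984 and Gm17089 also fell, by 4.30 and 3.85 on the log2 scale, and their reads may come from the same RNA as those of Etv6. Genes of multi-copy families such as Usp17lb, Esp24 and Vmn2r94 may share reads with near-identical copies, and their values are uncertain for that reason.

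Imprinted genes expressed from the paternal copy included 3 of the genes that fell. Over all genes 0.542% fell. Of 22 such genes in the table, the 8-cell mean was lower in 16 and higher in 3, and 3 had no read in any of the 10 libraries. Of the 15 tested 3 had a log2 difference above 0, against 4293 of all 13425 genes on the deposited scale. Among the 15, 3 fell (Snrpn, Kcnq1ot1 and Gab1) and none rose, with a median log2 difference of -2.12 on the deposited scale (-1.87 on the median-ratio scale) and of -3.04 when genes without 8-cell reads are set at their bounds. The summed value of the 22 genes was 258 to 1296 at the 4-cell stage and 61.5 to 206 in 8-cell libraries, with no overlap. It was 326 to 818 in control 2-cell libraries, 198 to 1188 in light 8-cell libraries, 517 to 2627 in control morulae and 49.4 to 738 in control blastocysts. The split of the imprinted list by parent was made after the data were seen.

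Gab1, an adaptor of receptor tyrosine kinases that is expressed from the paternal copy in extraembryonic lineages, had 4-cell values of 46.9, 112, 58.9, 92.9, 102 and 139. At the 8-cell stage it had no read, at least 182-fold lower (limma adjusted p = 0.00017). Kcnq1ot1, the paternally transcribed long noncoding RNA that silences its neighbours in cis, had 4-cell values of 117, 73.4, 1.14, 158, 43.7 and 190.4 and 8-cell values of 0, 0, 0 and 0.417. Its log2 change was -5.64 (SE 1.11, limma adjusted p = 0.00405), and 4-cell library 3 lay close to the 8-cell values. Snrpn, a protein of the splicing machinery, had 4-cell values of 17.9, 83.9, 121, 186, 35.5 and 245 and 8-cell values of 0, 0, 13.9 and 0 (-5.40, SE 0.95, limma adjusted p = 0.00211). The fall rested on no single library, although 8-cell library 3 held reads, and Snrpn was not called with edgeR TMM. Sfmbt2, a polycomb-group protein, did not pass (limma adjusted p = 0.114). Its values were 0, 0, 1.90, 385, 236 and 59.9 at the 4-cell stage and 0, 0, 0 and 0.417 in 8-cell libraries. Usp29, a deubiquitinase, had the opposite order, with 0, 0, 20.9, 49.9, 0 and 9.03 at the 4-cell stage and 57.4, 189.5, 4.64 and 52.1 in 8-cell libraries (adjusted p = 0.119).

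There were 7 imprinted genes expressed from the maternal copy. Their summed value was 544.5 to 976 at the 4-cell stage and 412 to 497 in 8-cell libraries, also lower with no overlap. None of the 4 tested passed, and their median difference was -0.38 on the deposited scale and 0.31 on the median-ratio scale. Igf2r, the receptor that removes insulin-like growth factor 2, had 4-cell values of 633, 877, 804, 513, 736 and 757 and 8-cell values of 426, 372, 387 and 446. Its difference was -0.80 (limma adjusted p = 0.116) on the deposited scale and -0.0049 on the median-ratio scale. The difference between the paternal and the maternal list was not tested.

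Sex-linked genes were read library by library. The 8 Y-linked genes in the table had summed values of 0 to 411 at the 4-cell stage and of 0 to 0.926 in 8-cell libraries. Ddx3y, an RNA helicase on the Y chromosome, had values of 0, 0, 15.2, 153, 84.0 and 105 at the 4-cell stage and no read in 8-cell libraries (limma adjusted p = 0.0669). Xist, the RNA that coats the silenced X chromosome, had values of 397, 521, 7.98, 6.84, 2.05 and 1.64 at the 4-cell stage and of 3.70, 2.66, 0 and 2.09 in 8-cell libraries (adjusted p = 0.183). Thus 4-cell libraries 1 and 2 had Xist and no Ddx3y, 4-cell libraries 3 to 6 had Ddx3y and little Xist, and the 8-cell libraries had little of either. In control morulae the mean of Xist was 1187. Among 451 X-linked genes tested 4 were higher and 8 lower on the deposited scale (2.66%), and 4 rose and none fell on both scales, whereas 6.45% of autosomal genes were called on the deposited scale. The part of embryo sex and parental origin in the stage differences was not tested.

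Genes listed for transient expression at the 2-cell stage mostly had higher 8-cell values. Of 21 tested, 18 had a higher 8-cell mean on the log2 scale, as had 4293 of all 13425 genes. The median difference was 1.85 on the deposited and 2.44 on the median-ratio scale. Of the 21 genes 3 rose, against 1.07% of all genes. Zfp352, a zinc-finger gene that marks the 2-cell stage, had values of 0, 0, 4.56, 2.93, 1.37 and 0 at the 4-cell stage and of 28.7, 109, 109 and 17.1 in 8-cell libraries (4.71, SE 1.04, limma adjusted p = 0.00902). All 8-cell libraries were above all 4-cell libraries. In control 2-cell embryos its mean was 117, and in control morulae it was 0.429. Spz1, a helix-loop-helix factor, had values of 0.852, 0.655, 3.42, 4.89, 4.78 and 11.5 at the 4-cell stage and of 67.6, 126, 80.1 and 24.2 in 8-cell libraries (3.94, SE 0.92, limma adjusted p = 0.0128). Its call was lost without 8-cell library 2 or without 8-cell library 3 (adjusted p up to 0.0584). Usp17lb, a deubiquitinase of a multi-copy family, rose by 3.89 on the deposited and 4.27 on the median-ratio scale. On the deposited scale 2 of the 21 were called lower, Pramel7 and Pramel6 of the PRAME-like family. Their control 2-cell means, 40.2 and 59.9, lay below their control 4-cell means of 595 and 270. In control morulae the means were 256 and 398, so these 2 listed genes did not peak at the 2-cell stage here. Pramel7 had a log2 difference of -2.13 (limma adjusted p = 0.0102), and of -1.34 on the median-ratio scale (adjusted p = 0.111). Pramel6 had a difference of -2.35 (limma adjusted p = 0.0181), lost without 4-cell library 6, 8-cell library 1 or 8-cell library 3 (adjusted p up to 0.0516), and of -1.56 on the median-ratio scale (adjusted p = 0.125). The summed value of the list overlapped between the stages, at 606 to 2924 and 990.3 to 2285, and did not follow the median.

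Transcripts of the translation machinery were lower in 8-cell libraries on the deposited scale, and few of them were called on the median-ratio scale. Over all genes tested 5.17% were called lower on the deposited scale. Among 91 cytosolic ribosomal proteins 38 fell on the deposited scale and none rose, with a median difference of -1.30. On the median-ratio scale 1 was lower and 1 higher, with a median of -0.50. Rpl4, of the large ribosomal subunit, had 4-cell values of 1718, 1794, 1024, 2414, 1949 and 2255 and 8-cell values of 715, 700.1, 607 and 369, with no overlap. It fell by 1.63 on the deposited scale (limma adjusted p = 0.00321), and on the median-ratio scale the difference was -0.83 (adjusted p = 0.11). Only Rps4l, a second gene for ribosomal protein S4, fell on both scales. It had 4-cell values of 176, 72.7, 62.0, 415, 314 and 579 and 8-cell values of 27.8, 25.0, 13.9 and 0.417 (-4.15, SE 0.77, limma adjusted p = 0.00286).

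In other groups of housekeeping machinery at most 1 gene each was called on both scales. The counts on the deposited scale stand against 5.17% of all genes tested called lower. Of 48 translation factors 15 fell on the deposited scale (median -0.97, or -0.18 on the median-ratio scale), and Eif4ebp1, which holds back cap-dependent translation, fell on both. Its 4-cell values of 47.7 to 189 became 15.7, 13.8, 1.16 and 4.17 (-3.76, SE 0.71, limma adjusted p = 0.00347). Of 54 nucleolar genes 9 fell on the deposited scale (median -0.96, or -0.17), among them Npm1, the nucleolar chaperone nucleophosmin, with 4-cell values of 1549 to 4294 and 8-cell values of 695 to 1027 (adjusted p = 0.0019, and 0.0623 on the median-ratio scale). Of 50 spliceosome genes 6 fell on the deposited scale and 1 on both (median -0.96, or -0.17), and of 27 RNA polymerase subunits none was called (-1.07, or -0.29). Of 46 proteasome subunits 12 fell on the deposited scale (median -1.20, or -0.51). Psmd4, a ubiquitin receptor of the proteasome, had 4-cell values of 392 to 919 and 8-cell values of 225, 225, 121 and 149.8. It was called lower on the deposited scale (-1.84, limma adjusted p = 0.00459) but not on the median-ratio scale (-1.04, adjusted p = 0.0837). With 4-cell libraries 1 and 2 as the only 4-cell libraries, some medians changed sign on the median-ratio scale, where all genes had a median of 0.17. That of the proteasome subunits was 0.13, of the primitive endoderm genes 0.53 and of the histone genes -1.20.

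Genes of the mitochondria were read by where they are encoded, beside the 5.17% of all genes tested called lower on the deposited scale. Of 77 nuclear genes for mitochondrial ribosomal proteins 10 fell on the deposited scale (median -1.27, or -0.52 on the median-ratio scale). Mrpl2 fell on both, from 83.5, 125, 106, 149.6, 179 and 136 to 13.9, 20.2, 4.64 and 15.0 (-3.29, SE 0.57, limma adjusted p = 0.00211). Of 82 nuclear subunits of oxidative phosphorylation 9 fell on the deposited scale (median -1.10, or -0.33), and Sdhc, a membrane anchor of complex II, fell on both, from 10.6 to 64.2 at the 4-cell stage to at most 2.66 (-4.16, SE 0.96, limma adjusted p = 0.0114). None of the 13 protein genes of the mitochondrial genome was called, with a median of -0.54 and 0.26. The 13425 genes tested had medians of -0.56 and 0.05, and the difference between the lists was not tested.

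**Figure D4:**
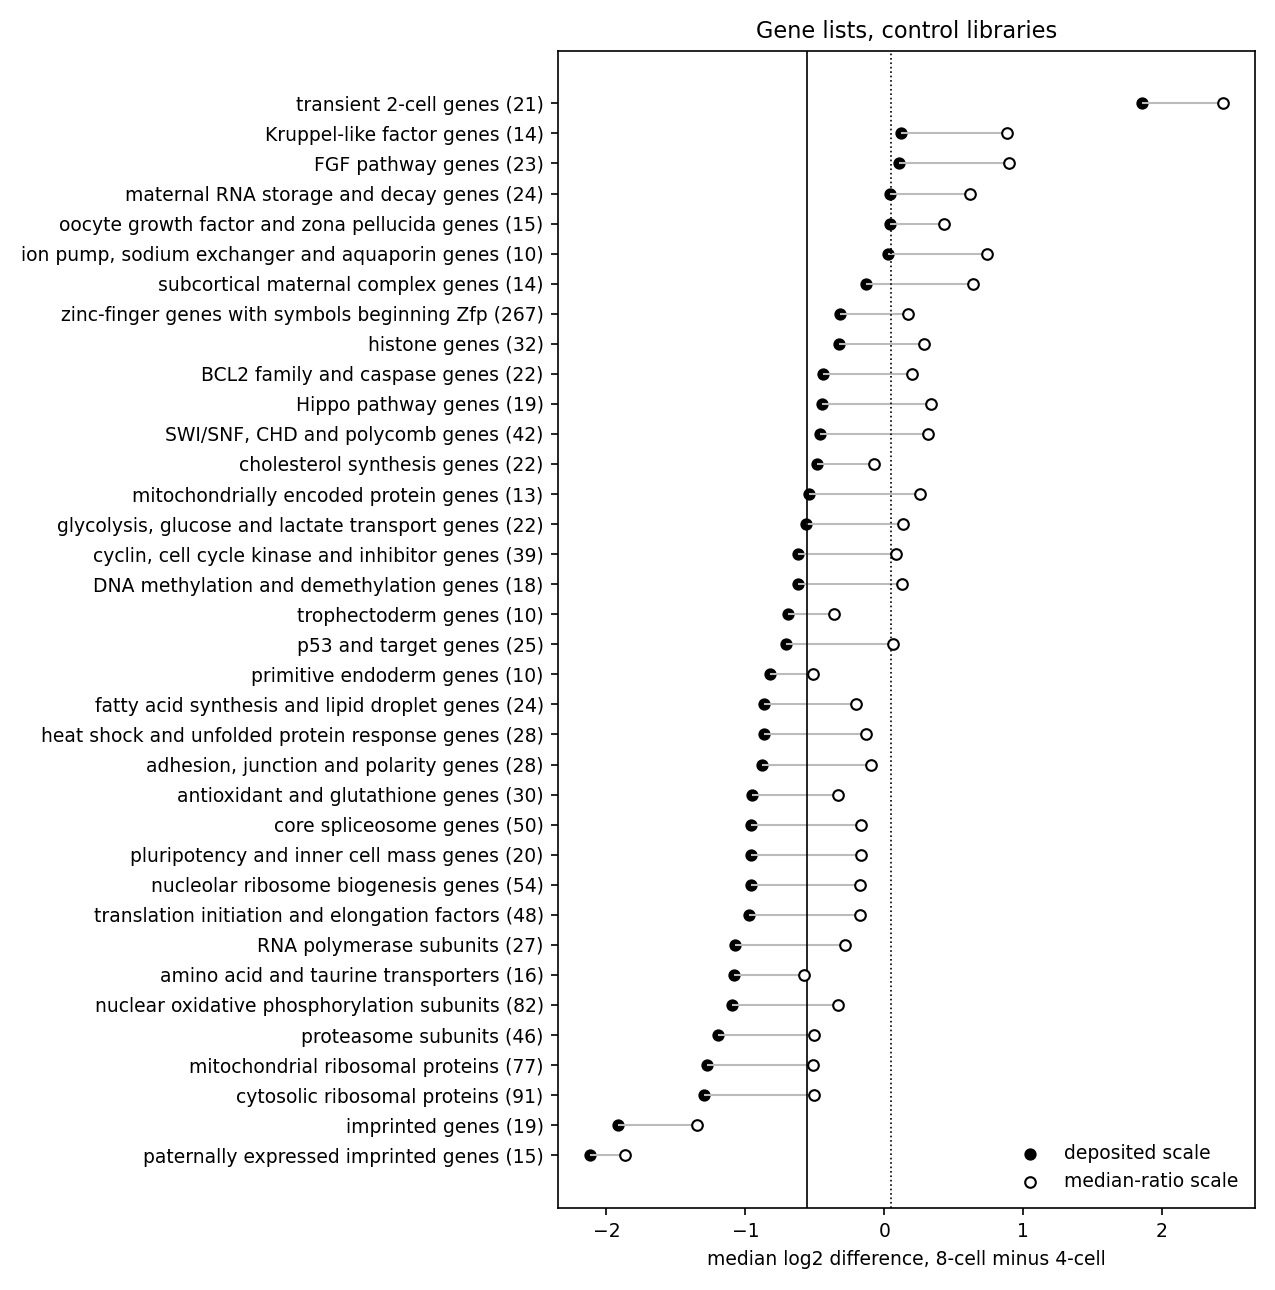
Median log2 difference, 8-cell minus 4-cell, of the 36 gene lists with at least 10 genes tested, on the deposited and the median-ratio scale. The solid line marks the median of all genes on the deposited scale (-0.56) and the dotted line that on the median-ratio scale (0.05); the paternally expressed imprinted genes lie lowest and the transient 2-cell genes highest.

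None of the listed genes of the first lineages and of compaction was called on both scales. Of 20 pluripotency and inner cell mass genes 2 fell on the deposited scale, and of 10 trophectoderm and 10 primitive endoderm genes 1 each, where 5.17% of all genes tested were called lower. The medians were -0.96, -0.69 and -0.82, and -0.17, -0.36 and -0.52 on the median-ratio scale. Pou5f1, the pluripotency factor OCT4, had 4-cell values of 46, 94.4, 104, 335, 456 and 346 and 8-cell values of 49.1, 23.4, 16.3 and 47.1. It fell by 2.43 on the deposited scale (limma adjusted p = 0.0186), with the higher 4-cell values in libraries 4 to 6, and the call was lost without 4-cell library 5 or 8-cell library 3 (adjusted p up to 0.0785). On the median-ratio scale the difference was -1.65 (adjusted p = 0.126). Nanog had 4-cell values of 10.2, 50.5, 33.4, 102, 161 and 82.1 and 8-cell values of 7.40, 0, 23.2 and 6.67 (-3.13, limma adjusted p = 0.0364, and 0.165 on the median-ratio scale). That call was lost without any one of 4-cell libraries 4, 5 and 6 and of 8-cell libraries 1, 2 and 4 (adjusted p up to 0.126).

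Tead4, the partner of YAP that starts the trophectoderm programme, had 4-cell values of 141, 127, 199, 502, 307 and 459 and 8-cell values of 128, 54.8, 66.2 and 59.2. Its difference was -1.78 on the deposited scale (limma adjusted p = 0.0253) and -0.99 on the median-ratio scale (adjusted p = 0.245), and the deposited call was lost without any one of 4-cell libraries 4, 5 and 6 and of 8-cell libraries 2, 3 and 4 (adjusted p up to 0.0725). Cdh1, the adhesion protein E-cadherin of compaction, had 4-cell values of 42.6 to 354 and 8-cell values of 31.5, 103, 34.8 and 149 and was not called (-1.09, limma adjusted p = 0.306). Of 28 adhesion, junction and polarity genes 4 fell on the deposited scale and none on both, against 5.17% and 0.542% of all genes. Klf5, a factor required for both early lineages, had 4-cell values of 60.5, 75.4, 217, 80.2, 88.1 and 81.3 and 8-cell values of 317, 164, 183 and 158, and was called higher on the median-ratio scale only (1.89, adjusted p = 0.0312, against 1.10 and 0.154 on the deposited scale). Sox2 was listed at 0 in all 10 libraries. Cdx2 and Krt8, markers of trophectoderm, had 4 and 21 reads in all at the 4-cell stage and none in 8-cell libraries and were not tested.

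Oocyte and maternal transcripts gave almost no calls. None of 15 oocyte growth factor and zona pellucida genes and none of 14 genes of the subcortical maternal complex was called, with medians of 0.04 and -0.13 on the deposited and 0.43 and 0.64 on the median-ratio scale. Gdf9, an oocyte growth factor, had 4-cell values of 8.52, 1.97, 20.5, 24.4, 54.6 and 18.9 and 8-cell values of 25.0, 15.4, 9.29 and 16.7, fully overlapping (adjusted p = 0.979), against a mean of 268 in control 2-cell embryos. Of 24 genes for storage and decay of maternal RNA 1 fell on the deposited scale, against 5.17% of all genes tested. Dppa3, the maternal protein Stella, had 4-cell values of 1776 to 4587 and 8-cell values of 1111 to 2048 (-0.86, limma adjusted p = 0.0954).

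Metabolic, transport and growth-factor genes gave a few single genes. For comparison, 5.17% of all genes tested were called lower on the deposited scale. Scd3, described above, was the only riser among 24 genes of fatty acid synthesis and lipid droplets, whose median was -0.86 on the deposited and -0.20 on the median-ratio scale. Of 22 cholesterol synthesis genes none was called. Among 16 amino acid transporters 3 fell on the deposited scale and Slc1a1, a transporter of glutamate and aspartate, on both, from 211, 131, 294, 792, 755 and 753 to 82.4, 12.2, 37.1 and 93.4 (-3.14, SE 0.58, limma adjusted p = 0.00277). Hsp90ab1, a chaperone among 28 heat shock genes of which 5 fell on the deposited scale, had 4-cell values of 3053 to 9315 and 8-cell values of 1727 to 2527 (-1.47, limma adjusted p = 0.00401, and 0.155 on the median-ratio scale). Of 267 zinc-finger genes with symbols beginning Zfp 4 rose and 1 fell on both scales, against 1.07% and 0.542% of all genes. Zfp771 rose from at most 4.56 to 36.1, 29.8, 32.5 and 47.1 (3.98, SE 0.97, limma adjusted p = 0.0164), and, unlike Zfp352, had a mean of 0.851 in control 2-cell embryos. Zfp599 fell, from 29.0, 68.1, 55.9, 174, 143 and 187 to 2.78, 16.5, 1.16 and 0.417 (-4.59, SE 0.81, limma adjusted p = 0.00211).

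The remaining lists gave few calls, and at most 1 gene each on both scales. Of 39 cyclins, cell cycle kinases and inhibitors 6 fell on the deposited scale, and of 25 p53 genes 1 did. Ccng1, described above, belongs to both and was the only one called on both scales. Of 23 FGF pathway genes Fgf1, a fibroblast growth factor, rose on both scales (3.27, limma adjusted p = 0.04), but its stages overlapped and its call was lost without 4-cell library 5 or any one 8-cell library (adjusted p up to 0.121). On the deposited scale 1 of 18 DNA methylation genes, 3 of 22 glycolysis genes, 2 of 19 Hippo pathway genes, 1 of 10 ion pump and aquaporin genes and 2 of 42 chromatin remodelling and polycomb genes fell, against 5.17% of all genes tested. The same held for 1 of 32 histone genes, 1 of 30 antioxidant genes and 1 of 5 Obox genes. None of 22 BCL2 family and caspase genes was called on that scale.

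Markers of cells that can cling to an embryo were also summed. The 14 cumulus cell genes in the table had summed values of 16.2 to 143 in 4-cell and 29.6 to 51.1 in 8-cell libraries, and 8 of them had no read in any of the 10 libraries. The 13 sperm genes had sums of 21.3 to 64.8 and 12.8 to 18.4, with 6 at 0 throughout. Of these lists 2 and 3 genes were tested and none was called, and their part in the stage differences was not tested.

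The sequence just before the transcription start was read from RefSeq (GRCm38.p6) for 4 genes that moved and whose 80 bases before the start hold one of the motifs searched. They are shown as examples of the promoters behind the counts that follow, were chosen after their values were seen, and are printed 5′ to 3′ on the strand of the gene, with 1 motif each in capitals and any other match left in lower case. Usp17lb, Nat8f2 and Sap30 rose and Kcnq1ot1 fell.
Usp17lb, chr7:104842584-104842663, minus strand: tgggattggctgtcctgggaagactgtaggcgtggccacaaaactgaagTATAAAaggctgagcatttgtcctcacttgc
Nat8f2, chr6:85869138-85869217, minus strand: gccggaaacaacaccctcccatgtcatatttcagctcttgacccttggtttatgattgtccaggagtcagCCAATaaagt
Sap30, chr8:57487861-57487940, minus strand: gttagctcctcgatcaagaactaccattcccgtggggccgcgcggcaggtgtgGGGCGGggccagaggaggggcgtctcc
Kcnq1ot1, chr7:143296548-143296627, minus strand: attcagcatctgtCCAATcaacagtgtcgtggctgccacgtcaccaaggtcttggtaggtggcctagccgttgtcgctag
The TATAAA of Usp17lb starts 31 bases before the transcription start, the usual place of a TATA box. The GGGCGG of Sap30, the core of a site for SP and KLF factors, starts 27 bases before it.

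Promoters of 250 bases before to 50 bases after the start were in RefSeq for 83 of the 142 genes that rose, 57 of the 72 that fell and 8894 of the genes tested, and were searched on both strands. TATAAA was present in 13.3% of the risers, 10.5% of the fallers and 8.10% of all. GGGCGG was present in 53%, 63.2% and 67.6%. CCAAT, bound by NF-Y, was present in 41.0%, 45.6% and 43.2%, and CATTCC, bound by TEAD factors, in 13.3%, 15.8% and 14.2%. The shares of CCAAT and CATTCC in both sets were thus near those of all promoters. No test was made of these shares, and a match of letters is a description only.

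The genes that moved were followed in libraries that took no part in their calls. From the 2-cell stage to the morula, on the median-ratio scale, 135 of the 142 risers were lower in control morulae (95.1%, against 59.7% of all genes tested) and 60 of the 72 fallers were higher (83.3%, against 40.1%). The risers were thus mostly genes with more RNA in 2-cell embryos than in morulae, and the fallers mostly the reverse. In the light group, 49 of the 142 risers were higher at the 8-cell than at the 4-cell stage (34.5%, against 48.2% of all genes) and 32 of the 72 fallers were lower (44.4%, against 51.6%). Among the risers, Sap30 had means of 97.7 and 76.3 in light 4-cell and 8-cell libraries, and Colgalt2 of 12.6 and 0.863.

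**Figure D5:**
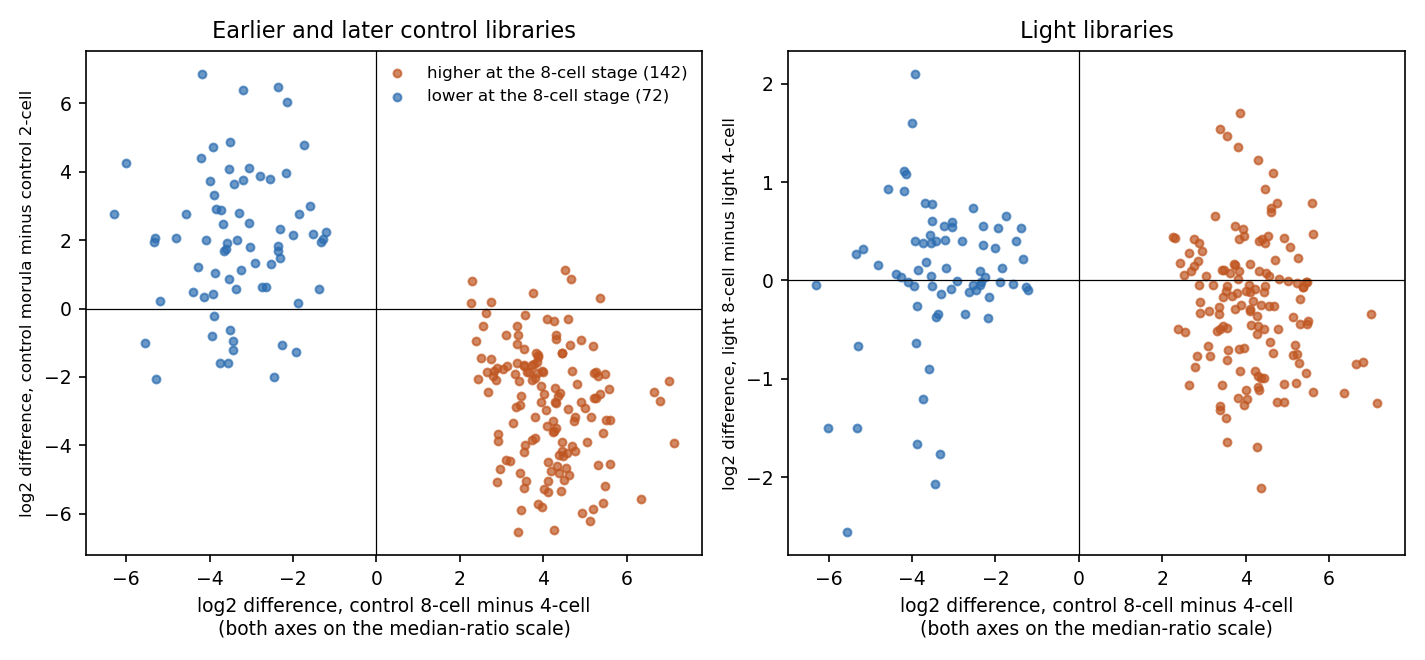
Log2 difference on the median-ratio scale for the 142 genes that rose and the 72 that fell, in libraries not used for the calls. Control morula minus control 2-cell is at the left, and light 8-cell minus light 4-cell at the right. At the left most risers lie below 0 (135 of 142) and most fallers above it (60 of 72); at the right both sets spread around 0.

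The change between the stages differed between control and light embryos for 646 of 16987 genes by the limma interaction term (3.8%). This was on the deposited scale, which is used for the term below. With median-ratio scaling the term was called for 872 genes. For 358 of the 646 the rise was larger in control embryos (2.11%) and for 288 it was smaller (1.7%). The term was called for 105 of the 142 risers and 62 of the 72 fallers, always in the direction of the control change, but the control libraries that chose these genes are also part of the term. All 24 genes named for the size of their change were called. Chit1 had the largest term among them, 8.22 on the log2 scale (SE 1.25, limma adjusted p = 0.000194), with light means of 12.3 at the 4-cell and 5.83 in 8-cell libraries. Bbx had a term of -6.10 (SE 0.78, adjusted p = 3e-05), with light means of 109 and 77.5. Etv6 had the smallest term of the 24, -3.0 (SE 0.84, adjusted p = 0.0342), with light means of 103 and 13.7.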

How the data were processed

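Libraries were mapped to groups by their titles. The submitters' processing notes name HISAT2, HTSeq 0.9.1 and the build mm9. The authors deposited signal values for 26414 genes, which are the reads of each gene after division by a library size factor. The study's methods describe RPKM, but the deposited signal values were whole reads after multiplication by the size factor, within 0.01, for at least 99.95% of values in each library, so no division by length had been made. The design was written for normalized values or raw counts, and the former was used.

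Log2(value + 1) was modelled in R 4.3.3 by limma 3.58.1, using lmFit and a trended eBayes, for genes above 1 in at least 3 of the 10 libraries. Such differences understate the change of genes with few reads. Calls needed a Benjamini-Hochberg adjusted p under 0.05 and a 2-fold change. Single measures were compared by two-sided exact permutation over 210 regroupings. Total reads, 1967508 to 6536063 per library, limit genes with few reads: a gene without reads in a stage was given a floor of 3 reads over that stage, and ratios with 1 to 3 reads a 95% interval, both for counting error only. Replicates of a stage were no duplicates (chi-square per degree of freedom at least 12.2). The median-ratio scale, and the use of calls on both scales, were added after the data were seen, as were edgeR 4.0.16 and DESeq2 1.42.0 on the recovered reads, thinning to equal depth, and the likeness to 2-cell embryos and morulae.

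Named genes were the 12 largest rises and 12 largest falls among called genes without overlap between the stages, with a mean of at least 10 in a stage, also called on the median-ratio scale and without 4-cell library 3, leaving out predicted symbols (55 and 64 candidates). Added to them were up to 2 called genes per direction from each of 39 lists, a set of lineage and maternal genes whatever their result, and up to 3 genes per direction by the interaction. Not all genes added in this way are described in the text. Sfmbt2, Usp29, Igf2r, Ddx3y and Usp17lb were named after their values were seen. The members and lists were chosen with earlier results of these data known. GENCODE M21 (GRCm38) held 99.7% of the symbols and was used for chromosomes and overlaps, and promoters came from RefSeq (GRCm38.p6), with no coordinate taken from mm9. Computations used Python 3.11.15, numpy 2.4.6, pandas 2.3.3, scipy 1.17.1 and matplotlib 3.10.9, and were tested on simulated data. Alternatives were other pseudocounts, filters, scalings, library weights, a Wilcoxon test, a fit over all libraries, the replicate number as a block, and libraries left out.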

Additional observations from a re-analysis of the deposited data

Results flagged for a closer look

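In 12 of 64 groups of libraries checked, 1 library stood apart by Dixon's test on the log2(value + 1) scale. The groups were the 4-cell and the 8-cell libraries for 26 named genes and for the measures of depth and gene number. Chance flags about 1 in 20 groups of continuous, normal values. That rate does not hold for groups mostly at 0, as many here were. Among 4-cell libraries these were Chit1 in library 6 (14.8), Colgalt2 in library 1 (0.852), Vmn2r94 in library 1 (10.2) and Kcnq1ot1 in library 3 (1.14). Among 8-cell libraries they were Ankrd22 in library 1 (4.63), Esp24 in library 3 (5.80), Bbx in library 2 (0.532), Sox13 in library 4 (0.417), Kcnq1ot1 in library 4 (0.417), Snrpn in library 3 (13.9), Arhgap18 in library 1 (1.85) and Cmtm7 in library 4 (8.34). The values of 0.417, 0.532 and 0.852 were 1 read each, set against 0 in all other libraries of the stage. The values flagged for Vmn2r94, Snrpn, Arhgap18 and Cmtm7 were likewise the only ones above 0 in their stage. A single value above 0 is flagged by this test whatever its size, so the number of flags shows no excess.

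In the 24 genes named for the size of their change and in Bex1 and Ssr1, named by the interaction itself, the log2 change from the 4-cell to the 8-cell stage differed between control and light embryos by the limma interaction term, 26 genes in all. The control libraries that chose the 24 genes are also part of the term, and Bex1 and Ssr1 were chosen by it. The calls were therefore largely fixed by the choice and are no separate support. Over all genes the term was called for 646 of 16987 on the deposited scale (3.8%). Among them were other genes named in the text, such as Pou5f1 and Zfp352. The change was larger in control embryos by 7.34 for Apol7b, 8.22 for Chit1, 7.37 for Scd3, 7.37 for Colgalt2, 5.52 for Stox1, 5.73 for Ankrd22 and 5.92 for Esp24. It was also larger by 5.19 for Nat8f2, 5.58 for Robo1, 6.15 for Ccser1, 5.28 for Vmn2r94 and 5.39 for Sap30. The term (control minus light) was negative for the genes that fell, with -6.10 for Bbx, -4.36 for Gab1, -3.0 for Etv6, -5.46 for Lypla2, -3.78 for Metap1d, -4.49 for Sox13, -5.40 for Kcnq1ot1 and -4.97 for Snrpn. It was -4.35 for Arhgap18, -4.27 for Adprh, -5.28 for Epas1, -5.05 for Cmtm7, -6.20 for Ssr1 and -7.49 for Bex1, a small adaptor-like protein whose fall in control embryos did not pass (limma adjusted p = 0.0554). Bex1 had control 4-cell values of 233, 187, 0, 36.2, 0 and 55.8 and no read in control 8-cell libraries, with light means of 0.619 and 27.0.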

How the results depend on the processing

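The share of distance between the stages (19.5% to 26.8%) and the relative likeness of the 8-cell libraries to 2-cell embryos over morulae (difference between stages 0.0900 to 0.426) kept their direction and their side of the threshold in every setting run. The counts of genes moved. Against 847 genes (153 higher, 694 lower), no filter gave 421 (65 and 356), median-ratio scaling 272 (72 lower), quantile normalization 320 (113 lower), scaling by reads outside the rRNA-like genes 265 (84 lower), library weights 1784 (275 and 1509), a fit over all libraries 1950 (449 and 1501), edgeR with TMM 187 (60 lower), edgeR with RLE 211 (53 lower) and thinning to equal depth 249 (80 lower). DESeq2 gave 369 higher and 267 lower. A Wilcoxon test gave 0 (0 higher, 0 lower), with 2146 genes at an unadjusted p under 0.05 and a smallest adjusted p of 0.168. In limma 2966 genes were under that unadjusted p. Without 4-cell libraries 1 and 2 the count was 1892 (1688 lower), without 1 to 3 it was 2676 (294 and 2382) and without 3 to 6 it was 220 (75 and 145).

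On both scales, against 142 higher and 72 lower, a pseudocount of 0.1 gave 93 and 47, no filter 56 and 23, library weights 268 and 270, and a fit over all libraries 446 and 343. Without 4-cell libraries 1 and 2 it was 312 lower, without 1 to 3 it was 272 and 515, and without 3 to 6 it was 75 and 11. Leaving out 1 library at a time gave 340 to 1114 genes, 87 to 168 higher and 250 to 960 lower, and on both scales 80 to 149 higher and 32 to 128 lower. The total moved by over 1.5 times without 4-cell library 4 (469), 5 (483) or 6 (444) and without 8-cell library 3 (340) or 4 (508). The number higher did so without 4-cell library 4 (96), 5 (95) or 6 (93) or 8-cell library 2 (87) or 3 (90). On both scales the number higher did so without 4-cell library 4 (91), 5 (90) or 6 (88) or 8-cell library 2 (80) or 3 (90). The number lower on both scales did so without 4-cell library 1 (119), 2 (128), 4 (32), 5 (34) or 6 (36) or 8-cell library 2 (40). The interaction gave 646 genes on the deposited scale, and 491 to 971 with 1 library left out, the highest without 4-cell library 3 (971). It gave 872 with median-ratio scaling, 855 with quantile normalization and 922 with edgeR TMM.

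The labels give the stages shared replicate numbers, but the numbers did not pair the libraries: same-numbered libraries had correlations of deviations of 0.0271, 0.0172, -0.0197 and 0.0263. With the replicate block 106 genes were called (34 higher, 72 lower), 34 and 14 on both scales, and 25 for the interaction.

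All 24 genes chosen for size kept their direction in every setting run, and their call whichever single library was left out. The call was lost for 24 with the Wilcoxon test and for 9 of the 18 that could be fitted with 4-cell libraries 1 and 2 alone. It was lost for 2 with edgeR RLE, for 3 with edgeR TMM (Vmn2r94, Snrpn and Cmtm7) and for 4 with the replicate block.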
